A study of Mus musculus with 6 samples.

Results

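Per1 is a core component of the mammalian circadian clock and an early target of corticosteroid hormones. It was measured here after 1 h in mIMCD3 cells, a line from the mouse inner medulla's collecting duct, with aldosterone or with vehicle. Every probe set whose only annotated gene symbol was Per1 was taken, which gave 1 gene of the 8251 named on the array, read by 1 probe set, 93619_at, of 12422, and no further probe set listed Per1 beside other symbols. The identifier ends in plain "_at", the manufacturer's mark for a probe set designed against a single transcript; the probe sequences were not analysed here. The aldosterone group (mIMCD3 cells, aldosterone, 1 h) and the vehicle group (mIMCD3 cells, vehicle, 1 h) held 3 arrays each, with 1 array of each group in every one of 3 replications of the experiment. The sources used here give no dose, passage or growth conditions. All cells were of this 1 line. The labels do not say how far the cultures of the replications were separate, so the p-values cover the spread of these 6 samples, which may be partly technical.

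PER1 protein belongs to the negative limb of the clock: the CLOCK and BMAL1 activators bind E-boxes in the Per and Cry genes, and the PER and CRY proteins return to the nucleus to repress them. Per1 is also switched on within about an hour by outside signals, through cAMP response elements and through binding of steroid hormone receptors, without new protein synthesis. In collecting duct cells PER1 is known as a regulator of genes of sodium transport, among them the alpha subunit of the epithelial sodium channel, and of endothelin-1. Aldosterone is the adrenal steroid that raises sodium reabsorption in the distal nephron and collecting duct by way of the mineralocorticoid receptor.

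The gene lies on mouse chromosome 11, at 69095108 to 69109965 of GRCm38.p6 in the RefSeq annotation. RefSeq lists 2 start windows for it, each of 300 bases with 250 before and 50 after an annotated transcription start. These starts lie 3841 and 5044 bases after the first base of the annotated gene, so the windows do not cover its 5′ end. They are printed because they are the start windows that RefSeq gives for Per1; which start the measured transcript used was not analysed. The window of the Sgk1 gene that holds the full palindrome of the glucocorticoid response element is set below them for comparison. Sgk1 is the classical early aldosterone target and was among the genes with the profile most like that of Per1. Capitals mark matches to the motifs searched on both strands: the half-site AGAACA of the glucocorticoid response element, which the mineralocorticoid receptor also binds, the full palindrome of that half-site, any 3 bases and its reverse complement TGTTCT, the E-box CACGTG, the cAMP response element TGACGTCA, its core TGACGT and the D-box TTATGNAA. The palindrome contains 2 half-sites and the full cAMP response element contains its core.
Per1 window 1, chr11:69098699-69098998, plus strand: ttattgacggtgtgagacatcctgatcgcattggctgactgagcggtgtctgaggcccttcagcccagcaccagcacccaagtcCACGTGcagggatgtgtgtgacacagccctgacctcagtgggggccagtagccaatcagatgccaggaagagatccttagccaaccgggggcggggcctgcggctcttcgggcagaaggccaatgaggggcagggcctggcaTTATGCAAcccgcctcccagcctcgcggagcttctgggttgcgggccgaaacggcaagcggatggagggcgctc
Per1 window 2, chr11:69099902-69100201, plus strand: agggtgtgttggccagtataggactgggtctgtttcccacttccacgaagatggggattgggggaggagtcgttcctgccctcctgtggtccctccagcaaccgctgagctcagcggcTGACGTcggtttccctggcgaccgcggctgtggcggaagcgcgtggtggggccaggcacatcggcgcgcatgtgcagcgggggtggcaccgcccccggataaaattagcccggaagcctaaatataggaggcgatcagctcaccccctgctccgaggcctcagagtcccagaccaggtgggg
Sgk1 window 5, chr10:21993640-21993939, plus strand: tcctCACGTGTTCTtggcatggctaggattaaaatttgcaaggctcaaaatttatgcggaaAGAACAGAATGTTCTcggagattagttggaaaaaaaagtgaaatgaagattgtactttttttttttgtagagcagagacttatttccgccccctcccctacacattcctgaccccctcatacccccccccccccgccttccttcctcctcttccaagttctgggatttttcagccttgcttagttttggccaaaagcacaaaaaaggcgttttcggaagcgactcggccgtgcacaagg

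The upstream Per1 window held 1 E-box, whose first base lay 166 bases before the annotated start, and 1 D-box that began 24 bases before it. The downstream window held the core of a cAMP response element, 132 bases before its start. An E-box was present in 7.15% of all 32851 RefSeq windows of this length, a D-box in 3.38% and the core TGACGT in 7.51%. Neither Per1 window held the glucocorticoid palindrome or its half-site, which says only that these letters are not in these 600 bases. Of all windows, 3 held the palindrome (0.00913%), and 1 of the 3 was window 5 of the 6 of Sgk1, where it began 189 bases before the start. Windows 1 and 4 of Sgk1, not printed, held the half-site without the palindrome, 195 and 13 bases before their starts. The half-site was present in 19% of all windows. These matches are descriptions of sequence, and binding was not measured.

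Per1 was brighter on each of the 3 aldosterone arrays than on any vehicle array. Its intensity, after every array was scaled to a common trimmed mean, was 2765, 3047 and 2265 with aldosterone in replications 1, 2 and 3, against 1118, 981 and 1170 with vehicle. The groups did not overlap, and the lowest aldosterone value lay 1.94-fold above the highest vehicle value. The means were 2692 ± 396 with aldosterone and 1090 ± 97.6 with vehicle (SD, n = 3 each), so the coefficient of variation was 14.7% with aldosterone and 8.96% with vehicle. In RNA of whole cultures, more transcript per cell and more cells that carry it cannot be told apart.

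**Figure D1:**
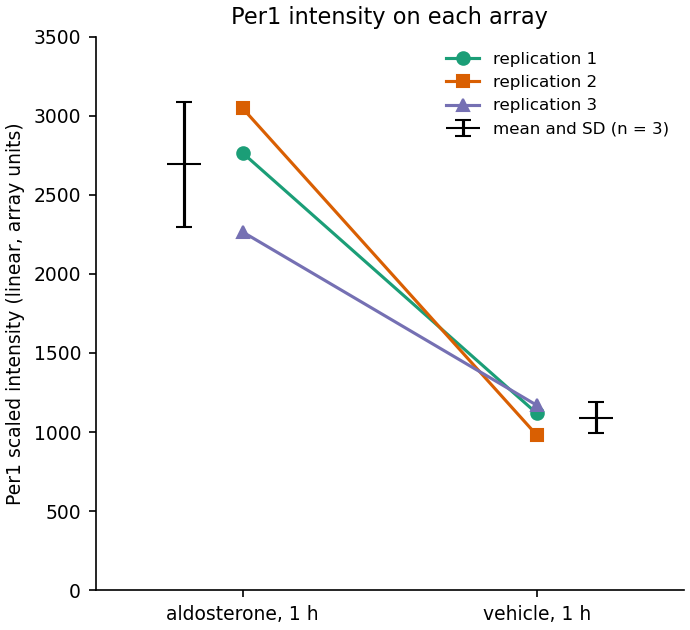
Scaled Per1 intensity (linear array units) on the 3 aldosterone arrays and the 3 vehicle arrays, with a line joining the arrays of a replication and black bars giving mean and SD (n = 3). The aldosterone arrays sit between 2265 and 3047 and the vehicle arrays between 981 and 1170.

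The size of the difference was not the same in the 3 replications. The ratio of scaled intensities, aldosterone over vehicle, was 2.47 in replication 1, 3.11 in replication 2 and 1.94 in replication 3. Replication 2 had the highest aldosterone value and the lowest vehicle value, whereas replication 3 had the lowest aldosterone value and the highest vehicle value. The levels in the 2 groups therefore ran in opposite order over the replications. With 1 array for each treatment in a replication, a difference in response between replications could not be tested.

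The aldosterone array of replication 3 was deposited on another scale, and its Per1 value there was 93.7. The factor applied to it was 24.2, against 0.838 to 0.840 on the other arrays, so the ratio of replication 3 depends on how arrays are scaled. It was 1.94 with the trimmed mean, 2.10 with a common median, 1.97 after quantile normalization and 1.99 when the 2 arrays of the replication were set to each other by the median ratio. In replications 1 and 2 the 2 arrays had nearly the same factor, and the Per1 ratios as deposited were 2.47 and 3.11. Without that 1 array the mean log2 difference was 1.37, and without the whole replication it was 1.43.

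On the scale of log2(intensity + 53.0), where the constant damps noise in dim probe sets and slightly lowers fold changes, Per1 averaged 11.41 ± 0.21 with aldosterone and 10.15 ± 0.13 with vehicle (SD, n = 3 each). The log2 difference was 1.26 (standard error 0.185, 95% interval 0.84 to 1.67), which is 2.39-fold with an interval of 1.79 to 3.19. The differences within replications 1, 2 and 3 were 1.27, 1.58 and 0.92. The whole interval lay above 0. Over the 7453 probe sets bright enough to be tested, however, limma gave Per1 a Benjamini-Hochberg adjusted p = 0.242. Its unadjusted p in that fit was 6.48e-05, rank 2 of all. An exact permutation test of the 6 values, two-sided, gave p = 0.1, the smallest that 3 against 3 arrays allow. It exchanged the values freely and did not keep the replications paired.

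With the replication as a block in the fit, the adjusted p of limma was 0.0722 and the interval of the log2 difference was 0.87 to 1.65. The block lowered the standard error of Per1 little, to 0.173, while the median standard error of all tested probe sets was 0.153 with the block and 0.209 without it. Per1 therefore did not pass the threshold of 0.05 in either fit of all 3 replications.

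Few probe sets moved as Per1 did. Groups that did not overlap, with aldosterone higher, were found for 1.91% of the tested probe sets, and with aldosterone lower for 2.27%. A difference of at least 1.5-fold in all 3 replications was found upward for 0.121%, which is 9 probe sets with Per1 among them, and downward for 0.0403%. An unadjusted p under 0.05 with aldosterone higher was reached by 0.617% in the fit on group alone and by 2.07% with the block, and with aldosterone lower by 0.349% and 1.29%. An adjusted p under 0.05 was reached by 0% in both fits. Over replications 1 and 2 alone, without the rescaled array, 880 of the 7453 tested probe sets had groups that did not overlap with aldosterone higher. Of the same 7453, 54 were at least 1.5-fold higher in both. Non-overlap is a weaker condition with fewer arrays in a group, so the 880 are not comparable with the 1.91%.

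Ranked by the mean log2 difference, Per1 had rank 5 of 7453. Above it were a probe set without a gene symbol (1.81), Sgk1 (1.63), Smyd2 (1.54) and Rag1 (1.31); the unnamed probe set and Rag1 were named after their values were seen, and both were uneven, with 0.42 and 0.12 in their smallest replication. Ranked by the smallest of the 3 differences, Per1 had rank 4 at 0.92, after Smyd2 (1.48), Sgk1 (1.46) and the dimmer Edn1 probe set (1.16). Within single replications it was less extreme. In replication 1, 49 probe sets had a larger difference, in replication 2 there were 37 and in replication 3 there were 58. The middle 95% of the tested probe sets lay between -0.58 and 0.81 in replication 1, -0.85 and 1.02 in replication 2, and -0.74 and 0.59 in replication 3.

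**Figure D2:**
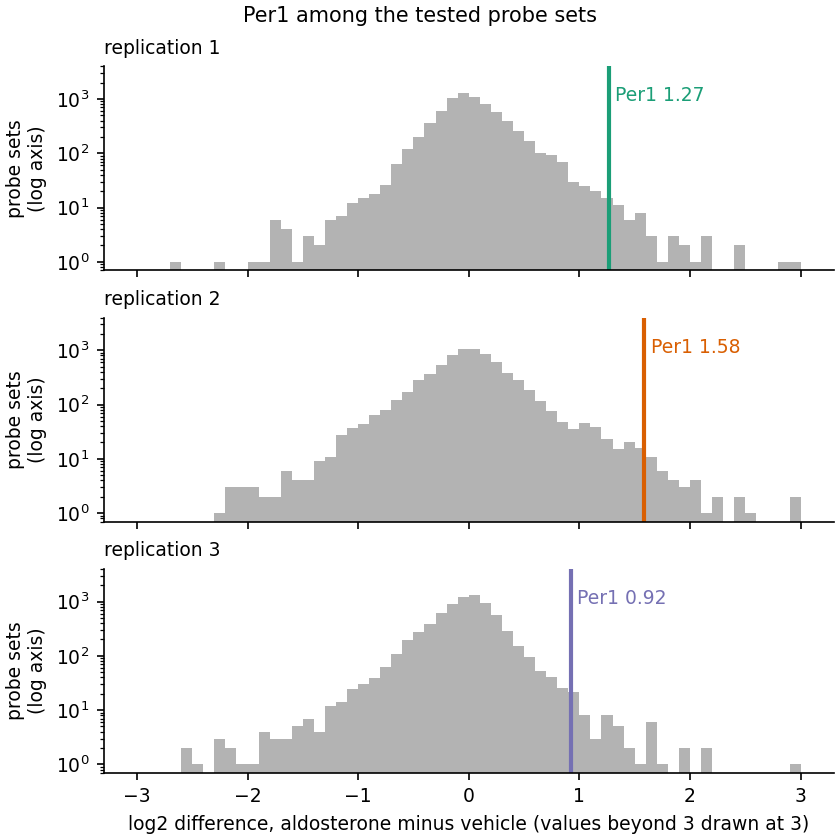
Histograms of the log2 difference, aldosterone minus vehicle, over the 7453 tested probe sets in each replication, with the count on a log axis and a coloured line at Per1. Per1 lies at 1.27, 1.58 and 0.92, in the upper tail each time.

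The other genes of the circadian clock did not show a shared change. Of 26 listed clock genes other than Per1, 19 were on the array and 16 were bright enough to be tested. By sign, 9 of these were higher and 7 lower, and their log2 differences had a median of 0.01, against -0.0003 over all tested probe sets. By limma 0 of the 16 had an adjusted p under 0.05, with or without the block, as had 0% of all tested probe sets. An unadjusted p under 0.05 on group alone was reached by 0 of the 16, beside 0.617% of all tested probe sets higher and 0.349% lower. None had groups that did not overlap, beside 1.91% with aldosterone higher and 2.27% lower. Counts of 0 among 16 genes are near these shares and do not set the clock genes apart. The sign count rested on small values: it was 8 of 16 higher without the aldosterone array of replication 3 and 5 of 16 without replication 1.

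Among the activators, Clock had a log2 difference of 0.21 ± 0.219 (standard error, here and for the other clock genes), and Arntl, which encodes BMAL1, had -0.29 ± 0.303. Arntl read 1069, 862 and 638 with aldosterone in replications 1, 2 and 3, against 1093, 1451 and 706 with vehicle. It was lower in all 3 replications, by much in replication 2 alone, and the groups overlapped. Npas2, which can stand in for Clock, was too dim to be tested, at 24.7 to 45.9 with aldosterone and 26.1 to 67.2 with vehicle.

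The closest relatives of Per1 were not higher in all 3 replications, as Per1 was. Per3 read 1623, 1337 and 1114 with aldosterone, against 844, 1824 and 1257 with vehicle, with differences of 0.90, -0.43 and -0.17 that changed sign between replications. Its mean log2 difference was 0.10 ± 0.284. Per2, a light- and hormone-responsive paralog, was too dim to be tested and read 353, 268 and 338 with aldosterone, against 343, 53.8 and 352 with vehicle. The groups of Per2 overlapped, and its difference was 0.04 in replication 1, 1.59 in replication 2 and -0.05 in replication 3, so its mean of 0.53 rests on 1 low vehicle array.

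The cryptochromes, partners of the PER proteins in repression, were near 0. Cry1 had a log2 difference of 0.02 ± 0.184 in its brightest probe set. Cry2 had -0.19 ± 0.248 and changed sign between replications. In the loop of nuclear receptors that controls Arntl, the repressor Nr1d1 had 0.11, the repressor Nr1d2 had 0.10 and the activator Rora had 0.01.

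Among the clock's output factors, which act through D-boxes, Tef had a log2 difference of -0.33 and was higher in replication 3 alone, and the repressor Nfil3 had 0.14 in its brightest probe set and 0.43 in its other. Dbp was too dim to be tested and was higher in all 3 replications, at 184, 308 and 517 with aldosterone, against 76.1, 108 and 411 with vehicle. Its groups overlapped because replication 3 was bright in both. Outside these output factors, the repressor Bhlhe40 had -0.06.

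Genes that act on clock proteins were mostly near 0, apart from Usp2 and a dimmer probe set of Csnk1d. The kinases that phosphorylate PER proteins gave -0.05 for Csnk1d in its brightest probe set and 0.02 for Csnk1e. The other 3 Csnk1d probe sets gave 0.06, 0.61 and 0.12, the largest of them from differences of 0.08, 1.53 and 0.20, with a low vehicle array in replication 2 (848, against 2395 and 2048 in the other vehicle arrays) and an unadjusted p of 0.0445 by limma with the block. The ubiquitin ligase subunit Btrc gave -0.21, and Timeless gave -0.03. Usp2, a deubiquitinase that is itself a clock output and a described aldosterone-responsive gene, had the largest difference of the 16 brightest probe sets at 0.49. It read 645, 915 and 991 with aldosterone, against 390, 718 and 687 with vehicle, higher in all 3 replications with groups that overlapped, and its standard error was 0.305. The other Usp2 probe set, too dim to be tested, changed sign between replications, with 0.09, 1.44 and -0.54 and a mean of 0.33.

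Set against these genes within each array, Per1 stood higher with aldosterone. Per1 minus the median of the 16 clock genes was 0.78, 1.17 and 0.78 on the log2 scale in replications 1, 2 and 3 with aldosterone, against -0.16, -0.62 and -0.34 with vehicle. The difference between the groups was 1.28 and was positive in all 3 replications, with no overlap. An exact permutation test over the 6 arrays, two-sided, gave p = 0.1. It exchanged the arrays freely without keeping the replications paired. The value is the smallest this test allows, so it could not pass 0.05.

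**Figure D3:**
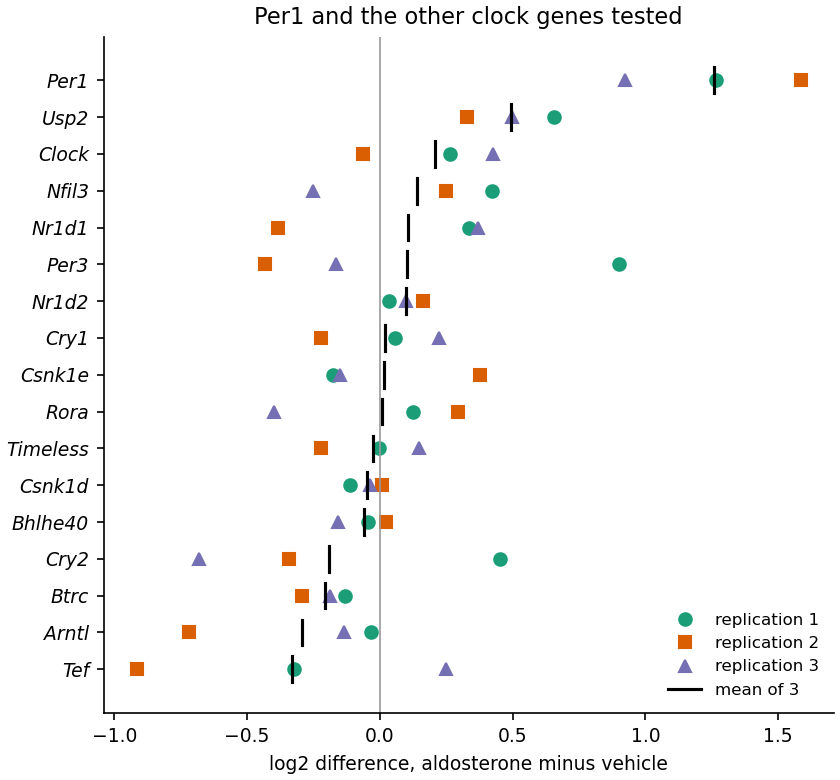
Log2 difference, aldosterone minus vehicle, in each replication (coloured symbols) for Per1 and the 16 other tested clock genes, ordered by their mean (black bars). Per1 lies at 0.92 to 1.58, and the means of the other genes lie between -0.33 (Tef) and 0.49 (Usp2).

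Beside other genes known to respond to corticosteroids, Per1 had one of the larger differences. Of 28 such genes listed, 24 were on the array and 19 were tested. By sign 16 of them were higher and 3 lower, and the median of their log2 differences was 0.24. The 5 on the array that were too dim to be tested were not mostly higher. Their log2 differences were -0.60 for Tsc22d3 (Gilz), -0.50 for Ndrg2, -0.21 for Rasd1, -0.05 for Zbtb16 and 0.07 for Pdk4. These 5 were named after their values were seen. All 3 replications were higher for 11 of the 19, and for 10.5% of all tested probe sets, where 11.5% were lower in all 3. By limma 0 of the 19 passed the adjusted threshold, with or without the block. An unadjusted p under 0.05, with aldosterone higher, was reached by 5 of the 19 on group alone and by 9 with the block, beside 0.617% and 2.07% of all tested probe sets. The list was written with earlier results of these data known, so its counts are not independent evidence.

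Sgk1, the kinase that keeps epithelial sodium channels at the cell surface, alone exceeded Per1, at 1.63. Within 0.5 below Per1 on the log2 scale lay Edn1 (endothelin-1) at 1.02, Ccn2 (connective tissue growth factor) at 0.91, the transcription factor Cebpd at 0.87 and the MAP kinase phosphatase Dusp1 at 0.87. The remaining tested targets had smaller differences. Some were flat, such as the immunophilin Fkbp5 at -0.005 and the AMP deaminase Ampd3 at -0.02. Others lay between, such as Pim3 at 0.59, Errfi1 at 0.44 and Bcl6 at 0.41. Fkbp5, Ampd3, Errfi1 and Bcl6 were named after their values were seen.

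Per1 also belongs to the genes that growth factors, cAMP and stress induce within minutes, and the levels of such genes differed between replications. Of 20 early-response genes listed, 17 were tested. By sign 8 of them were higher and 9 lower, the median of their log2 differences was -0.01, and by limma 0 passed the adjusted threshold with or without the block. An unadjusted p under 0.05 on group alone was reached by 0 of the 17, beside 0.617% of all tested probe sets higher and 0.349% lower. With the block 1 did, beside 2.07% higher and 1.29% lower. Counts of 0 and 1 among 17 genes are near these shares. The 1 gene was the MAP kinase phosphatase Dusp6, named after its values were seen. Dusp6 had the largest difference of the 17 at 0.70 (95% interval with the block 0.30 to 1.10, limma's unadjusted p = 0.00335) and was higher in all 3 replications, by 0.30, 1.06 and 0.74. Egr1 read 9794, 3510 and 3276 with aldosterone in replications 1, 2 and 3, against 14370, 2966 and 2964 with vehicle. Fos read 1531, 735 and 529 with aldosterone, against 2167, 639 and 509 with vehicle. Both were highest in replication 1 in either group, a pattern that Per1 did not have.

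The early-response genes named by rule had smaller differences than Dusp6. Their log2 differences were -0.06 for Egr1, -0.08 for Fos, 0.03 for Junb, 0.19 for Atf3 and -0.07 for Crem, a cAMP-induced repressor. Whether the state of the cells in a replication has a part in the Per1 difference was not tested.

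Among all 5640 tested genes, those with the log2 profile nearest to that of Per1 over the 6 arrays were found by the root mean square difference after each profile was centred on its own mean. The 10 nearest genes were Smyd2 (0.27), Edn1 (0.34), Spsb1 (0.34), Sgk1 (0.35), Dcaf12 (0.35), Zfp35 (0.35), Tex2 (0.36), Ppp1r2 (0.36), Gcnt2 (0.37) and Pim3 (0.37), where the median gene lay at 0.68. A profile that did not vary at all would lie at 0.65 from Per1. Since the measure uses the same 6 arrays, a gene near to Per1 had to be higher with aldosterone. All 10 had groups that did not overlap, beside 1.91% of all tested probe sets with aldosterone higher. The 10 were chosen on these same arrays, so this count is not a separate result.

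The nearest gene, Smyd2, a lysine methyltransferase, read 1165, 1465 and 1134 with aldosterone, against 375, 491 and 334 with vehicle. Its other probe set disagreed, with a mean log2 difference of 0.13 and differences of -0.26, 1.27 and -0.61. Sgk1 read 3043, 2311 and 2637 with aldosterone, against 1059, 805 and 640 with vehicle. Sgk1 differed from Per1 in that its largest ratio fell in replication 3, where that of Per1 was smallest. Edn1 read 3655, 2320 and 1944 with aldosterone, against 1669, 1082 and 1023 with vehicle, and its other probe set gave 1.25.

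The other 7 genes had smaller differences, from 0.57 for Tex2 to 0.87 for Gcnt2. Pim3, a serine/threonine kinase on the corticosteroid list, had 0.59, and the phosphatase 1 inhibitor Ppp1r2 had 0.78, with 0.22 in its other probe set. The list changed with any array left out. Of the 10 genes, 7, 4 and 5 were again among the nearest 10 without the aldosterone array of replications 1, 2 and 3, and 3, 1 and 2 without the vehicle array of replications 1, 2 and 3. After quantile normalization of all 6 arrays 9 of the 10 were. RefSeq start windows were at hand for 9 of the 10 genes. An E-box was found in those of 1 of the 9 (Sgk1), against 8.09% of all genes, the half-site AGAACA in those of 2 (Sgk1 and Gcnt2), against 21.3%, and the core TGACGT in those of 0, against 8.37%.

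**Figure D4:**
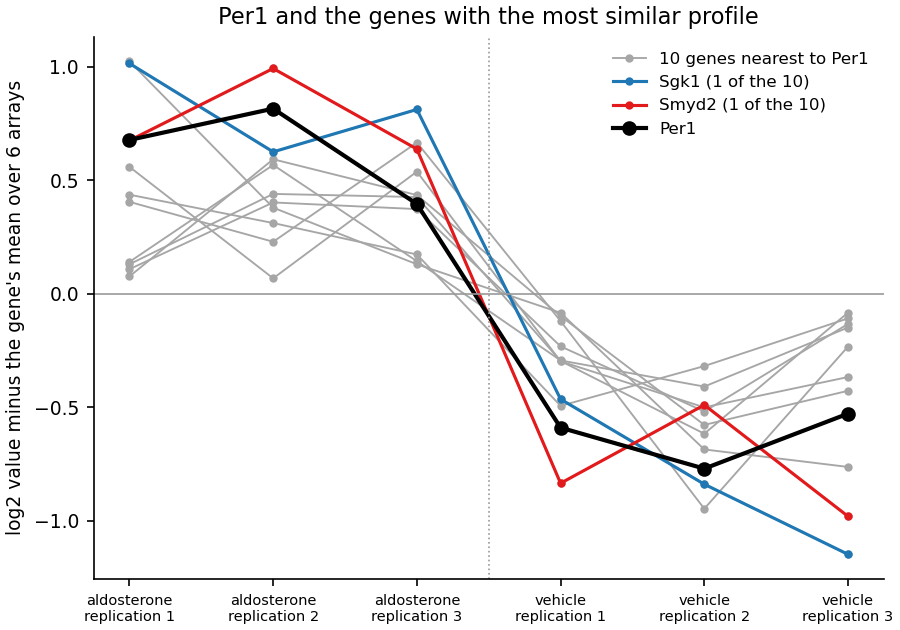
Log2 value minus the gene's own mean over the 6 arrays, for Per1 (black) and the 10 genes with the nearest profile (grey, with Sgk1 and Smyd2 coloured), on the aldosterone arrays and then the vehicle arrays; lines only link the points of a gene. Per1 lies highest on the aldosterone array of replication 2 and lowest on the vehicle array of replication 2.

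The cells carried the epithelial side of their label. Of 18 markers of collecting duct and simple epithelium listed, 12 were on the array and 6 were bright enough to be tested: Cdh1 (E-cadherin), Cdh16 (kidney-specific cadherin), the keratins Krt8, Krt18 and Krt19, and Hoxb7. Aqp2, the vasopressin-regulated water channel, Avpr2, its receptor, and Hsd11b2, which shields the mineralocorticoid receptor from glucocorticoids, fell below the brightness limit with Aqp4, Gata3 and Elf5. The summed level of the 12 was 67259, 67937 and 60157 with aldosterone in replications 1, 2 and 3, against 69001, 75588 and 64940 with vehicle. It was lower with aldosterone in every replication although the ranges overlapped, and by sign all 6 tested markers were lower, with 0 at an unadjusted p under 0.05 by limma with or without the block. Among all tested probe sets, 0.349% were lower at that p on group alone and 1.29% with the block. Per1 was therefore read in cells with epithelial markers, in which Aqp2, Avpr2 and Hsd11b2 were dim. Other listed markers had no probe set with their symbol alone. They were Aqp3, Slc14a2, Nr3c2 (the mineralocorticoid receptor) and the epithelial sodium channel subunits Scnn1a, Scnn1b and Scnn1g. Markers of the principal cell were thus read only in part.

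Markers of other cell types were mostly dim, and their summed levels overlapped in range between the groups. Of 5 fibroblast markers 2 were tested, and the sum of the 5 was 1854 to 2959 with aldosterone and 2206 to 2886 with vehicle. Of 5 endothelial markers 1 was tested, and their sum was 1327 to 2126 with aldosterone and 1775 to 2279 with vehicle. Of 5 leukocyte markers 2 were tested, the pan-leukocyte marker Ptprc not among them, and their sum was 6464, 6243 and 5273 with aldosterone in replications 1, 2 and 3, against 6740, 8002 and 5508 with vehicle. That sum was lower with aldosterone in all 3 replications, but most of it was Cd14 alone. Cd14 read 5692, 5694 and 4211 with aldosterone, against 6002, 6998 and 4722 with vehicle. Both tested markers, Cd14 (-0.18) and Cd68 (-0.41), were lower in all 3 replications. The groups of Cd68 did not overlap, as for 2.27% of all tested probe sets with aldosterone lower. For proximal tubule 1 of the 4 on the array was tested, with 1209 to 2104 with aldosterone and 1560 to 1994 with vehicle, and the single intercalated cell marker on the array, Slc4a1, was below the limit. The part of these markers and of other cells in the Per1 difference was not tested.

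Across the ways of processing the data, Per1 was higher with aldosterone each time. Its log2 difference lay between 1.09 and 1.43 under the 20 alternatives run, among them each array and each replication left out, and the lower end of the 95% interval stayed above 0 in all of them, at 0.58 or more. The smallest value, 1.09, was that without replication 2, and the largest, 1.43, that without replication 3.

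**Figure D5:**
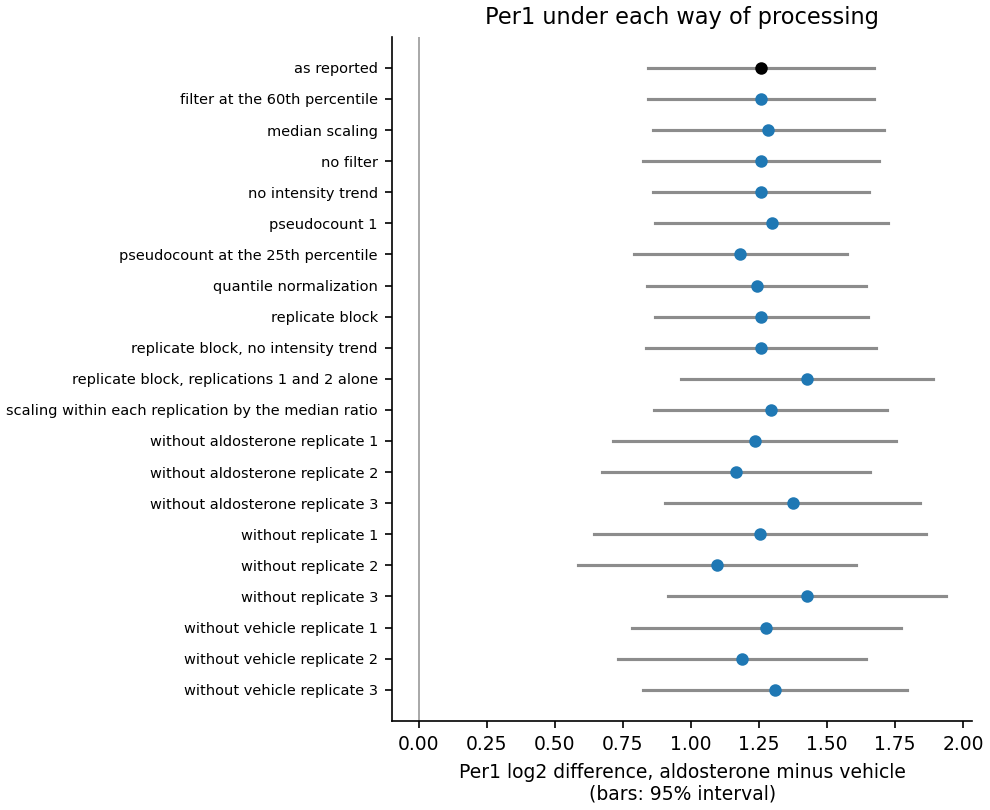
Per1 log2 difference, aldosterone minus vehicle, with its 95% interval, as reported (black, 1.26) and under the 20 alternatives (blue). The points lie between 1.09 and 1.43.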

How the data were processed

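Each array gave 1 linear intensity for every probe set, as deposited. Per the labels, total RNA was the template for the hybridised cRNA; the sources used here name no software, background correction or scaling. Trimmed means (2% off each end) were 2488 to 2493, except for 86.5 in replication 3 with aldosterone, so each array was scaled to a trimmed mean of 2090. Values on that array were stored in steps of 0.1. Values became log2(intensity + 53.0), the constant being the 10th percentile, and 7453 of 12422 probe sets with a mean log2 of at least 8.87 (40th percentile) were tested; Per1 averaged 10.78. No read depth exists for arrays; their number limits the precision.

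The 2 groups were tested in limma 3.58.1 under R 4.3.3 (lmFit, eBayes with intensity trend, group alone, two-sided, Benjamini-Hochberg), tested on simulated data. The replications pair the arrays, as the labels describe each as 1 experiment; deviations from group means correlated at 0.377, 0.387 and 0.471 within replications. Symbols came from the platform annotation (10833 probe sets with 1 symbol, 396 with several, 1193 with none) and were matched by Entrez identifier to RefSeq GRCm38.p6; genes with several probe sets were taken by the brightest. Per1, the gene lists and the rules for named genes (the clock list, the 10 nearest profiles, corticosteroid targets above or within 0.5 below Per1, 5 early-response genes) were chosen with earlier results of these data known. The planned 3 prime to 5 prime control ratios were not analysed here. Promoter sequences are from RefSeq.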

Additional observations from a re-analysis of the deposited data

How the results depend on the processing

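Per1 kept its direction in all 20 alternatives and stayed above an adjusted p of 0.05 in 19. It passed when replications 1 and 2 were fitted on their own with the replicate block, at a log2 difference of 1.43 and an adjusted p of 0.00536 by limma, a fit of 4 arrays with few residual degrees of freedom, and the range of its adjusted p over the alternatives was 0.00536 to 0.9999. With the replicate block in all 3 replications the log2 difference was 1.26 (adjusted p = 0.0722), and 0.721 was the adjusted p when the intensity trend was also dropped. The block moved the probe sets at an unadjusted p under 0.05 to 250, against 72 without it, those among the corticosteroid targets to 9, against 5, and those among the early-response genes to 1, against 0; it changed no call at the adjusted threshold. Leaving out arrays or replications gave Per1 values of 1.09 to 1.43. The count of probe sets called, 0, was 1, without a gene symbol, when the vehicle array of replication 2 was left out (leave-one-out range 0 to 1), and 9 in that fit of 4 arrays, Per1, Sgk1, both Edn1 probe sets and Ccn2 among them; the cause was not tested. Per1 minus the other clock genes was 1.03 to 1.46, with 0.1 the smallest exact permutation p. The count of 9 clock genes higher was 3 of the 8 tested with a filter at the 60th percentile. Of 568 values of 29 other named genes, 563 moved by less than the SD between replicates. The counts of listed genes, the nearest genes with arrays left out and the background without the rescaled array were chosen after seeing the data.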
